A study of Ovis aries with 91 samples.

Results

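In sheep whose atria had been paced, 68 genes were lower in isolated heart muscle cells than in control sheep, while in pieces of whole atrial tissue the same genes were lower by at most a little or were higher. They were chosen by their paced change, which is the mean over all transition and chronic samples of both appendages minus the mean over all control samples, on the log2 scale. A member had a paced change of −0.8 or lower in cardiomyocytes, a paced change of −0.2 or higher in whole tissue, and a mean log2 CPM (reads scaled to library size) of 1 or more in both. Of 12667 genes listed in both appendage tables, 10756 reached that level and 239 were past the cardiomyocyte threshold. Both thresholds were met by 70 genes, of which 2 IDs were left out in advance, so 68 remained.

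Atrial fibrillation, a rhythm in which the atria are excited fast and without order, was brought about by rapid pacing through a right atrial device, and sheep were labelled as transition or chronic, against control. Isolated cardiomyocytes and whole tissue were each sequenced from the left and right atrial appendages, with 3 transition, 3 chronic and 3 control sheep in each table. Samples of 7 sheep are in both of these tables. Whole tissue of the posterior left atrium came from 6 transition and 6 control sheep, and 5 of these sheep are also in the appendage tables; the 4 transition sheep with G numbers there are titled saline, and 3 of the control sheep have G numbers. Control groups hold sham sheep together with sheep C1, which is labelled control. Breed, age, duration of pacing and the way cells were isolated are not stated in the labels.

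The atrial wall is built of cardiomyocytes, the contracting and electrically excitable cells, together with fibroblasts, endothelial cells, smooth muscle, fat, nerve and immune cells. RNA of whole tissue mixes all of these, whereas RNA of isolated cardiomyocytes comes from cells that were taken out of the wall before lysis. A gene used by cardiomyocytes alone is therefore read in both preparations, and a gene used by several cell types is read in whole tissue against a background from the other cells. In bulk samples of this kind, fewer cells of a type and less RNA per cell cannot be told apart. The files list Ensembl sheep gene IDs without names, and 0 of the 13803 IDs in the 3 tables matched a symbol in the reference table, so members are given by ID, no role or pathway is given for them, and the cell type labels could not be checked against marker genes.

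Listed reads per cardiomyocyte sample were 5305524 to 11118207 in paced sheep and 7325726 to 12434418 in control sheep. Whole tissue samples held 6241967 to 22382458 listed reads in paced sheep and 7089908 to 12715615 in control sheep. For the posterior left atrium, depth is unknown. The labels tie each sample to a sheep, so sheep are the replicates, and the tables were normalised separately. Technical replicates of a sheep and region share a single value. Sample titles end in different L numbers for appendage tissue and for cardiomyocytes. In the posterior left atrium these endings also differ between G sheep and the other sheep. Preparation and set of sheep thus coincide with the endings and cannot be told apart from them.

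The cardiomyocyte values that chose the members had a median paced change of −0.94, a 1.92-fold lower level, against −0.01 for all 10756 genes. They ranged from −2.07 to −0.80. In the model across all genes, 50 of 68 members were past an adjusted p of 0.05 in the lower direction in cardiomyocytes, where 5.16% of all tested genes were lower and 5.24% higher (limma, Benjamini-Hochberg adjustment); this contrast chose the members, so the count is a description. For 22 members every paced cardiomyocyte sample lay below every control sample, against 1.47% of the 10756 genes. At the cardiomyocyte threshold ENSOARG00000006691 stood just inside at −0.802 and ENSOARG00000012028 just outside at −0.797. At the whole tissue threshold ENSOARG00000020860 stood just inside at −0.198 and ENSOARG00000020892 just outside at −0.201, and at the level threshold ENSOARG00000009090 stood just inside, with a mean log2 CPM of 1.01 in whole tissue.

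**Figure D1:**
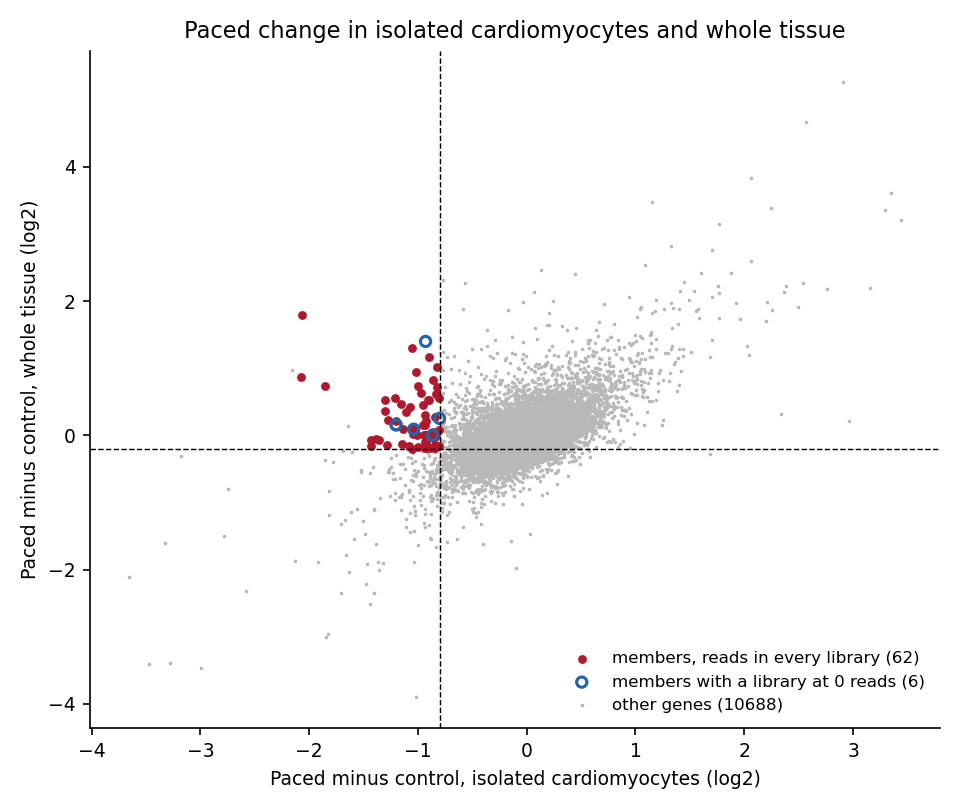
Paced change of each gene in isolated cardiomyocytes (x axis, log2) and in whole tissue (y axis, log2), with the thresholds of the choice as dashed lines; red points and blue rings are the 68 members, grey points the other genes of level 1 or more, among them the 2 IDs left out. The 68 members lie left of −0.8 and above −0.2, and the 6 ringed ones have at least 1 cardiomyocyte library at 0 reads.

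ENSOARG00000001574 had the lowest paced change. In isolated cardiomyocytes its log2 CPM was 6.59 at the lowest, 7.58 at the median and 8.35 at the highest over the 12 paced samples, against 9.08, 9.86 and 10.14 over the 6 control samples, so the groups did not overlap. In whole tissue the same gene had 1.57, 2.68 and 4.95 in paced samples, against 1.55, 1.92 and 2.28 in control samples. All 6 chronic samples, at 2.77 to 4.95, lay above the highest control there, while transition samples at 1.57 to 2.60 overlapped the controls. The gene thus had a paced change of −2.07 in cardiomyocytes and 0.88 in whole tissue.

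ENSOARG00000010939 followed with −2.06 in cardiomyocytes and 1.80 in whole tissue, the largest whole tissue increase among the members. Cardiomyocyte values were 6.41, 6.65 and 7.59 (lowest, median and highest log2 CPM) in paced samples and 8.12, 8.63 and 9.84 in control samples, again without overlap. In whole tissue, control samples had −0.64 to 4.56, transition samples 1.54 to 3.95 and chronic samples 4.06 to 7.92. Both samples of control sheep C1, at −0.64 and 0.68, were the lowest of that group, and 4 reads stood behind the lowest whole tissue value. The SD over control samples, 2.08, was wider than the whole tissue paced change.

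ENSOARG00000017480 was the third, at −1.85 in cardiomyocytes and 0.74 in whole tissue. Its cardiomyocyte log2 CPM lay at 2.88 to 4.79 in paced samples and 5.06 to 6.12 in control samples. In whole tissue it was at 1.32 to 3.46 in control, 1.03 to 3.19 in transition and 3.33 to 6.71 in chronic samples, so only chronic samples reached above the controls.

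The 2 most abundant members in cardiomyocytes were ENSOARG00000002486 and ENSOARG00000017214. ENSOARG00000002486 had a log2 CPM of 10.87, 11.19 and 11.67 (lowest, median and highest) in paced cardiomyocytes, against 11.63, 12.001 and 12.23 in control cardiomyocytes, a paced change of −0.81. Its whole tissue values were 6.87 to 8.12 in control, 8.61 to 9.21 in transition and 5.54 to 8.72 in chronic samples. Transition samples were thus all above the controls in whole tissue, and chronic samples spread to both sides of them. ENSOARG00000017214 had 7.85, 8.76 and 9.10 in paced cardiomyocytes, against 9.84, 10.07 and 10.20 in control cardiomyocytes, with no overlap and a paced change of −1.38. In whole tissue it lay at 2.78 to 5.49 in paced samples and 3.88 to 4.23 in control samples.

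**Figure D2:**
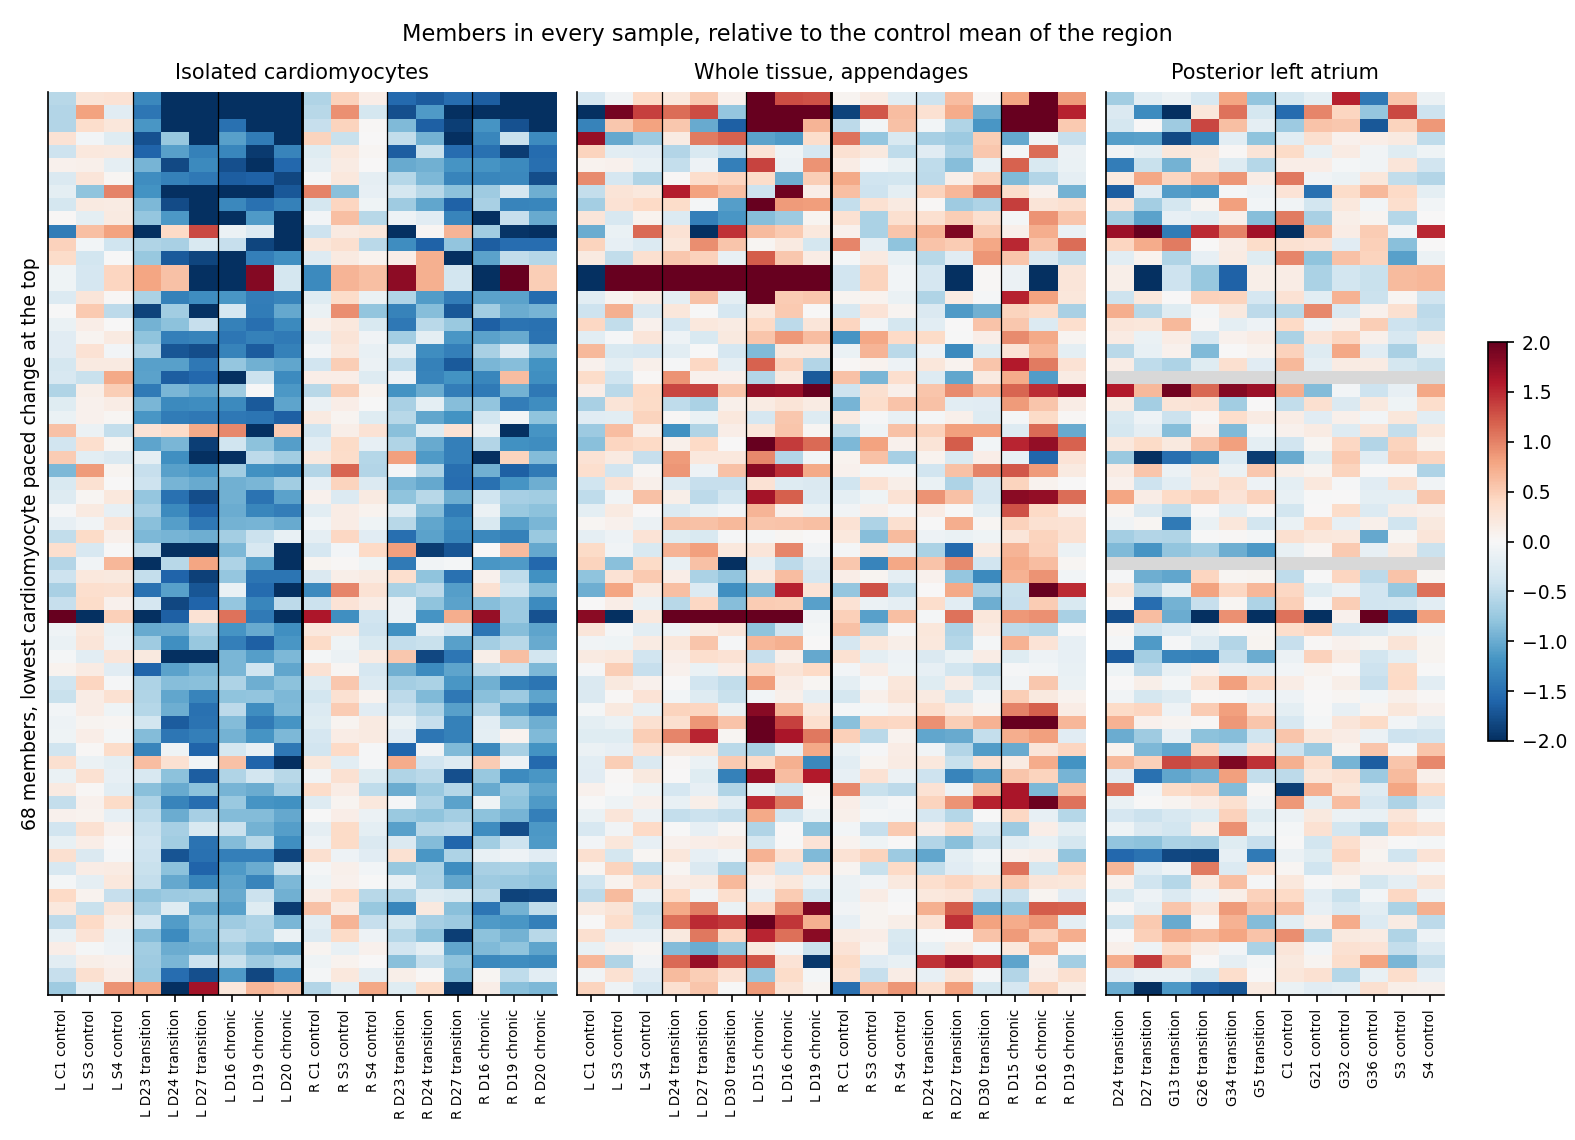
Log2 difference of each of the 68 members (rows, lowest cardiomyocyte paced change at the top) from the control mean of the same region, in every sample (columns, L left and R right appendage), for isolated cardiomyocytes, whole tissue of the appendages and the posterior left atrium; colours end at 2, and the 2 grey rows are members not listed for the posterior left atrium. Blue fills most of the transition and chronic columns of cardiomyocytes, whereas the whole tissue columns of chronic sheep D15 and D16 hold mostly red.

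The fall in cardiomyocytes, which the choice of members fixed on average, was also seen sample by sample. The median over members, relative to the control mean of the same appendage, was −1.43 to −0.57 in the 12 paced cardiomyocyte samples and −0.18 to 0.20 in the 6 control samples. The lowest was the left appendage of transition sheep D27 and the nearest to the controls was the right appendage of transition sheep D23. In transition cardiomyocytes 46 to 60 of 68 members lay below the lowest control of their side, where 26.7% to 34.8% of all genes did, and in chronic cardiomyocytes 51 to 64 did, where 31.1% to 36.1% of all genes did. By state, the median change from control was −0.95 in transition, with 66 of 68 members below 0, and −0.98 in chronic sheep, with 68 below 0. By side, the median paced change was −1.13 in the left and −0.88 in the right appendage. These values come from the contrast that chose the members and are a description.

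**Figure D3:**
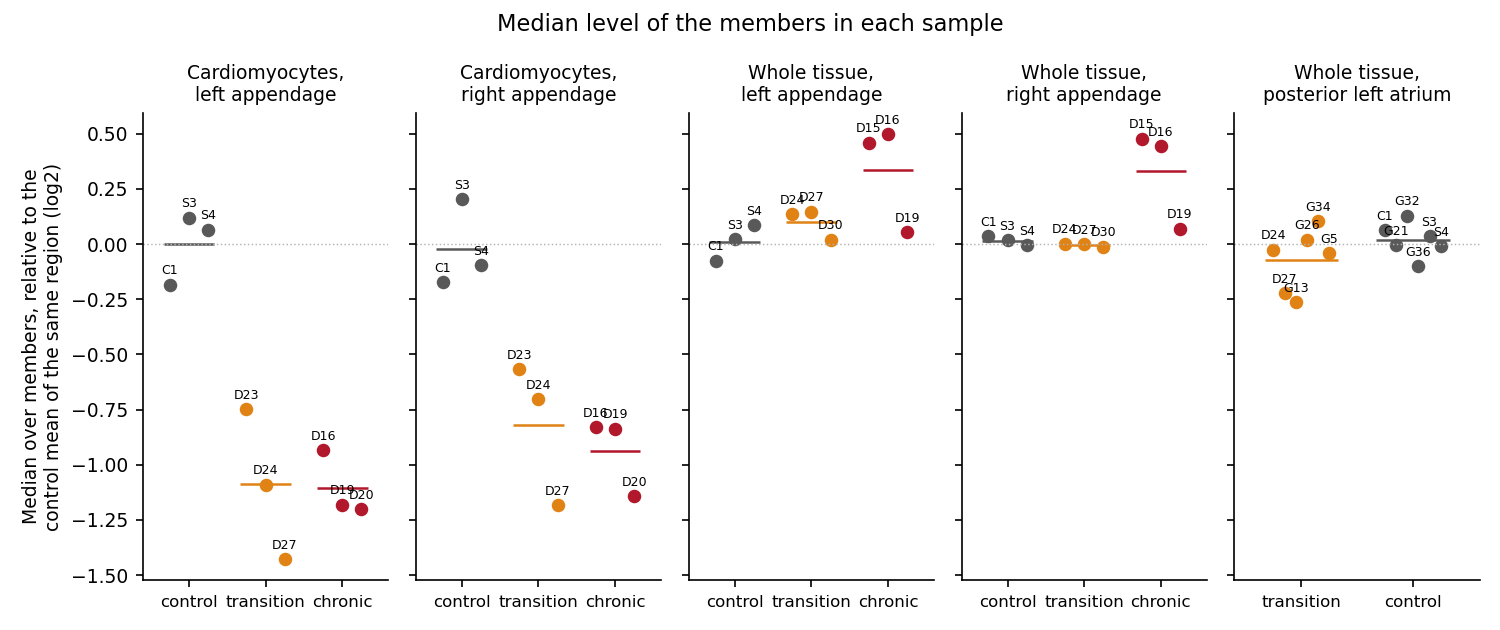
Median over the members in each sample, as the log2 difference from the control mean of the same region (y axis), by table, region and state (x axis); each point is 1 sample named by its sheep, and each line is the mean of the samples of a state. All 12 paced cardiomyocyte samples lie at −0.57 or lower, and in whole tissue chronic sheep D15 and D16 lie at 0.44 to 0.50 on both sides while chronic sheep D19 lies at 0.06 and 0.07.

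The whole tissue values entered the choice too, and are likewise a description. The median paced change of the members was 0.10 there, with a range of −0.20 to 1.80, where the lower end is set by the threshold. Of the 68, 44 were above 0, 39 lay between −0.2 and 0.2, and 18 were at 0.5 or more. In the model across all genes 5 members were past the threshold in the higher direction, where 5.37% of all tested genes were higher and 3.53% lower (limma, adjusted p of 0.05); the threshold left next to no room for lower calls, so nothing is read from their count of 0. An unadjusted p under 0.05 was found for 14 members (20.6%), against 24.8% of all genes. The 5 called members are named here because they are few and were picked after their values were seen: ENSOARG00000013157 (a paced change of 1.30), ENSOARG00000004403 (1.03), ENSOARG00000008183 (0.94), ENSOARG00000013636 (0.82) and ENSOARG00000011253 (0.72).

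ENSOARG00000013157 was lower in paced cardiomyocytes and higher in paced whole tissue. In cardiomyocytes its log2 CPM was 7.97, 8.29 and 9.37 (lowest, median and highest) in paced samples, against 8.78, 9.50 and 9.93 in control samples, and the groups overlapped through the left appendage of chronic sheep D19. In whole tissue it was 6.20, 7.005 and 8.03 in paced samples, against 5.13, 5.78 and 6.07 in control samples, without overlap. Its median in paced cardiomyocytes was still above its highest whole tissue value.

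The members' median in whole tissue differed between chronic sheep. It was 0.46 and 0.48 in D15 and 0.50 and 0.44 in D16 (left and right), but 0.06 and 0.07 in D19, and −0.01 to 0.15 in the 6 transition samples. In D15 and D16, 33 to 38 of 68 members were above the highest control of their side, and in D19 21 were on either side, where 30.6% to 32.7% of all genes were above in these 6 samples. Over the 7 sheep of both tables alone, the median paced change was −1.03 in cardiomyocytes and 0.03 in whole tissue. Samples of these sheep entered the rule too, so both values are a description.

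In control sheep, most members had a level at least 2-fold higher in isolated cardiomyocytes than in whole tissue of the same sheep and side, and in paced sheep fewer did. The level gap is the log2 CPM in whole tissue minus that in cardiomyocytes of the same sheep and side. The control count was 45 of 68 members (66.2%) that were 2-fold or more higher in isolated cells, against 345 of 10756 genes, or 3.21%. In paced sheep the count was 26 (38.2%), against 238 genes, or 2.21%. The members' median gap was −0.34 in the 8 pairs of paced sheep and −1.45 in the 6 pairs of control sheep, while over all genes it was 0.37 in paced and 0.32 in control sheep. For each gene, the paced gap minus the control gap equals the whole tissue paced change minus the cardiomyocyte paced change over the paired sheep. The rule chose members by both of these changes, so the shift between paced and control gaps restates that choice. The gap of the control sheep shares its samples with the rule, and no test is given.

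The gap was present in each pair. Of 68 members, 22 to 31 were 2-fold or more higher in isolated cells in each of the 8 paced pairs, against 1.999% to 4.79% of all genes, and 38 to 46 were in each of the 6 control pairs, against 3.84% to 4.38% of all genes. The widest gap belonged to ENSOARG00000001574, at −4.80 in paced sheep and −7.73 in control sheep, a 212-fold higher level in isolated cells in the controls. At the other end stood ENSOARG00000006691, the only member 2-fold or more higher in whole tissue of control sheep, with a gap of 2.72 in paced and 1.14 in control sheep. In 2 of its 8 paced pairs the cardiomyocyte library held 0 reads of it, and over the other 6 paced pairs its gap was 1.06.

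**Figure D4:**
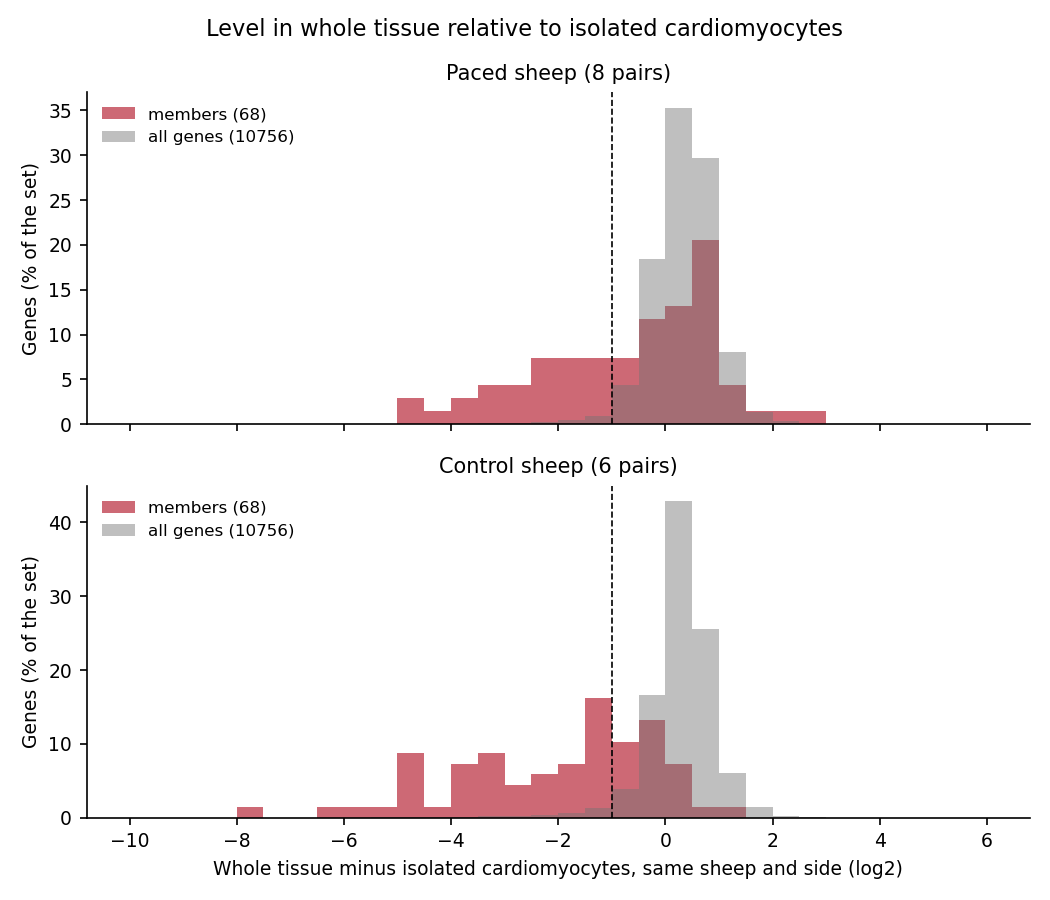
Distribution of the level gap, which is whole tissue minus isolated cardiomyocytes of the same sheep and side (x axis, log2), as a percentage of the 68 members (red) and of all 10756 genes (grey), in paced and in control sheep; the dashed line marks a 2-fold higher level in isolated cells. Members left of the line are 38.2% in paced sheep and 66.2% in control sheep, against 2.21% and 3.21% of all genes. The shift of the members between paced and control sheep restates their choice.

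A gap of this size was present in fewer of the genes that were lower in cardiomyocytes and in whole tissue alike. Past the same cardiomyocyte threshold but with a whole tissue change below −0.2 were 169 genes, of which 2 IDs were left out in advance. Of the 167 that remained, 20 (11.98%) were 2-fold or more higher in isolated cells in paced sheep and 22 (13.2%) in control sheep, with a median gap of 0.20 in paced and 0.08 in control sheep. Taken the other way, the 345 genes that were 2-fold or more higher in isolated control cells included 45 members (13.04%), and their median paced change was −0.45 in cardiomyocytes and 0.27 in whole tissue, with 80.6% of them lower in paced cardiomyocytes. The 238 genes that were 2-fold or more higher in isolated cells of paced sheep included 26 members (10.9%), and had a median paced change of −0.25 in cardiomyocytes and 0.05 in whole tissue, with 70.6% lower in paced cardiomyocytes. Among all 10756 genes of level 1 or more, 5585 were lower in paced cardiomyocytes. Over bins of the control gap, the median cardiomyocyte paced change was −0.77 for the 29 genes with a gap of −4 or lower, −0.33 for the 217 genes between −2 and −1, and 0.01 for the 7356 genes between 0 and 1. Control cardiomyocyte values enter the control gap and the cardiomyocyte paced change with the same sign. Control whole tissue values enter the control gap and the whole tissue paced change with opposite signs. The members and the 167 genes were parted by the whole tissue change, so the contrast of their gaps is not separate from the choice. The part of sampling error in this contrast and in the trend over bins was not tested.

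The posterior left atrium values of the members resembled whole tissue of the appendage in level. In control sheep C1, S3 and S4, which gave all 3 sample types, the median log2 CPM of the 66 members listed there was 3.47 in the posterior left atrium, 3.04 in left appendage tissue and 5.62 in left appendage cardiomyocytes. For 57 of the 66 (86.4%) the posterior left atrium value was nearer to the tissue than to the cardiomyocyte value, against 62.2% of all genes. The appendage values of these control sheep also entered the rule. With a gap as wide as that of the members, a further sample of whole tissue is likely to lie nearer to tissue. The share is thus a description.

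In 6 members the cardiomyocyte change rested on libraries with 0 reads. ENSOARG00000006834 and ENSOARG00000012450 had identical values in all 18 samples of each appendage table, so the 68 members hold 67 distinct sets of values and these 2 IDs are 1 measurement. ENSOARG00000006834, singled out after its values were seen, was at 0 reads in both cardiomyocyte samples of chronic sheep D16 and had a log2 CPM of −1.60 to 7.03 in the other 10 paced samples, against 2.97 to 4.92 in control samples. In whole tissue it was at 5.03 in the left appendage of D16 and at 0 reads in the right one, and it was also at 0 reads in the right appendage of transition sheep D27 and the left appendage of control sheep C1. The gene was thus present in one tissue sample of a sheep and without reads in the other. Its paced change in cardiomyocytes was −1.20, and 0.22 without the libraries at 0 reads.

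The other 4 were ENSOARG00000000570 (0 reads in both cardiomyocyte samples of D19), ENSOARG00000015702 and ENSOARG00000017989 (left appendage of D20) and ENSOARG00000006691 (left appendage of D24 and right appendage of D27). Without these libraries their cardiomyocyte paced changes were 0.08, −0.46, −0.12 and 0.24, so none of the 6 met the threshold. The remaining 62 members had reads in every library of both tables. Of the 50 members past the adjusted p in cardiomyocytes, 50 were among these 62, and the median paced change of the 62 was −0.94 in cardiomyocytes and 0.08 in whole tissue. Reads in every library did not make each change even over sheep. ENSOARG00000006582 had a cardiomyocyte paced change of −1.28 over all sheep. Over the sheep of both tables alone it was −0.08, the nearest to 0 of all members.

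Left and right appendages, which the rule had pooled, were compared over all 3 states. In cardiomyocytes 27 of 68 members differed, 8 higher in the left and 19 higher in the right, where 11.7% of all tested genes were higher in the left and 11.3% higher in the right (limma with sheep as a random effect, adjusted p of 0.05). The members' median left minus right difference was −0.16, against 0.02 for all genes. In whole tissue 9 differed, 2 higher in the left and 7 higher in the right, against 3.25% and 5.34% of all tested genes. The members' shares were 11.8% left-higher and 27.9% right-higher in cardiomyocytes, and 2.94% left-higher and 10.3% right-higher in whole tissue. In the 3 control sheep alone the median left minus right difference in cardiomyocytes was −0.03 for members and 0.01 for all genes. The comparison over all states holds the paced samples that chose the members. Their median paced change in cardiomyocytes was −1.13 in the left and −0.88 in the right. The right-higher share is therefore not separate from the choice of members. Without the 6 members that had libraries at 0 reads, 26 of 62 differed in cardiomyocytes, 8 higher in the left and 18 in the right, and 8 in whole tissue, 2 in the left and 6 in the right.

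The largest right-higher differences belonged to ENSOARG00000015702 and ENSOARG00000000788. ENSOARG00000000788 had a log2 CPM of −0.15 to 2.93 in the 9 left and 2.54 to 4.18 in the 9 right cardiomyocyte samples, and of −0.56 to 2.05 in the left and 2.11 to 4.38 in the right whole tissue samples. Its left minus right difference was −2.03 ± 0.24 in cardiomyocytes and −2.53 ± 0.27 in whole tissue (SE, limma adjusted p 3.25e-05 and 1.91e-05), lower in the left in 9 of 9 sheep in each table. ENSOARG00000015702 was lower in the left in 9 of 9 sheep of each table too, with a difference of −2.12 ± 0.55 in cardiomyocytes and −4.71 ± 0.44 in whole tissue (limma, adjusted p 0.0110 and 4.02e-06). The cardiomyocyte difference was widest in D20, at −4.93, where the left library held 0 reads, and it was −1.78 without D20 and still called; the call was lost without the sheep as a random effect. Its whole tissue values were −2.34 to 4.17 in the left and 4.62 to 6.80 in the right appendage.

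ENSOARG00000007872 was higher in the left. Its log2 CPM was 1.01 to 3.97 in the left and −2.17 to 2.25 in the right cardiomyocyte samples, a difference of 1.56 ± 0.34 (limma, adjusted p 0.00373), with 8 of 9 sheep above 0. In whole tissue it was 2.08 to 3.79 in the left and 0.75 to 2.19 in the right, a difference of 1.58 ± 0.20 (limma, adjusted p 8.75e-05), with 9 of 9 sheep above 0. ENSOARG00000008000 was also higher in the left, by 0.74 ± 0.09 in cardiomyocytes and 0.51 ± 0.12 in whole tissue, in 9 of 9 sheep of each table; its whole tissue call was lost without chronic sheep D15.

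Of 8 members called between the sides in both tables, 7 differed in the same direction and 1 in opposite directions, while 616 of all 11796 genes tested in both tables (5.22%) were called in both, 608 in the same direction and 8 in opposite directions. The members called in both are 11.8% of the 68. The exception was ENSOARG00000009090, whose left minus right difference was 1.21 ± 0.22 in cardiomyocytes and −2.06 ± 0.27 in whole tissue (log2, SE). Its cardiomyocyte log2 CPM was 1.28 to 4.94 in the left and 0.85 to 2.81 in the right appendage, and the left minus right difference was above 0 in 9 of 9 sheep. In whole tissue it was −1.003 to 1.42 in the left and 0.92 to 2.91 in the right, and the difference was below 0 in 9 of 9 sheep. Cardiomyocyte libraries held 12 reads of it at the lowest and 262 at the highest. The difference between the tables was not tested.

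**Figure D5:**
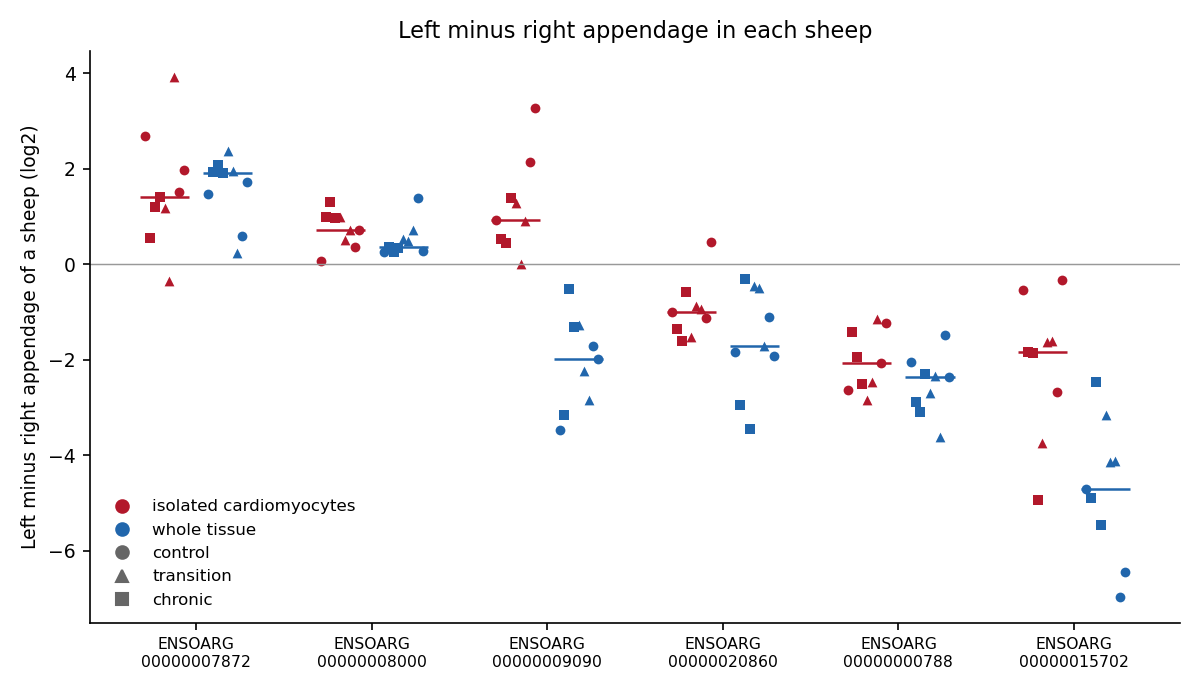
Left minus right appendage of each sheep (y axis, log2) for 6 members that differed between the sides in both tables, in isolated cardiomyocytes (red) and whole tissue (blue); symbols give the state of the sheep and lines the median of 9 sheep. ENSOARG00000009090 is the only one of the 6 with its cardiomyocyte points at or above 0 and its whole tissue points below 0.

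Chronic and transition sheep were then set against each other. The rule averaged these states and did not compare them, but both entered it. In cardiomyocytes 0 of 68 members differed at an adjusted p of 0.05, where 0.0163% of all tested genes were higher and 0.00814% lower in chronic sheep, and 4 members (5.88%) had an unadjusted p under 0.05, against 8.32% of all genes (limma). The member with the smallest p was ENSOARG00000012646, at −0.64 ± 0.17 (SE, adjusted p 0.340 by limma). Its log2 CPM in cardiomyocytes was 6.38 to 6.89 in control, 5.26 to 6.19 in transition and 5.05 to 5.37 in chronic samples. All chronic and transition samples were below the controls, and the transition sample at 5.26, the right appendage of D23, was within the range of the chronic ones.

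In whole tissue 0 of 68 members passed as well, where 0.0649% of all tested genes were higher and 0.0486% lower in chronic sheep. The members nonetheless leaned one way. Their median chronic minus transition difference was 0.34, against 0.002 for all genes, 51 of 68 were above 0, and 22 had an unadjusted p under 0.05, of which 21 were higher in chronic sheep, or 32.4% of members against 10.8% of all genes. Without D15 the median was 0.21 with 45 above 0, without D16 it was 0.25 with 48 above 0, and without D19 it was 0.44 with 51 above 0. The rule set a floor under the tissue mean of both states. A gene clearly lower in transition tissue could therefore enter only through a higher chronic value, and the reverse held too. ENSOARG00000017480 entered with a tissue change from control of −0.65 in transition and 2.14 in chronic sheep. The part of the rule in the lean was not tested. ENSOARG00000017480 had the smallest p, with a difference of 2.79 ± 0.59 (SE, limma adjusted p 0.0963); without D19 it was 3.56 and passed the threshold. The chronic sheep of the 2 tables were D15, D16 and D19 in whole tissue and D16, D19 and D20 in cardiomyocytes.

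Whether the paced change differed between the appendages was tested as an interaction. In cardiomyocytes 0 of 68 members passed, where 0.0244% of all tested genes had a change that was higher in the left and 0 of them (0%) a change that was lower; 9 members (13.2%) had an unadjusted p under 0.05, against 11.7% of all genes, and 7 of the 9 had a lower change in the left (limma). The paced change was lower in the left for 48 of 68 members, with a median difference of −0.22, against 0.01 over all genes. The rule averaged the sides, so a gene could enter through a large fall on 1 side. Over all genes of level 1 or more, the quartiles of the paced change were −0.27 and 0.22 in the left. In the right they were −0.22 and 0.19. The part of this wider spread in the count of 48 was not tested. ENSOARG00000013057 had the smallest p, at −0.75 ± 0.17 (SE, limma adjusted p 0.128). Its log2 CPM was 4.77 to 5.23 in paced and 6.27 to 6.49 in control cardiomyocytes of the left appendage, and 5.18 to 6.33 in paced and 6.14 to 6.55 in control cardiomyocytes of the right appendage. The groups were apart in the left and overlapped in the right. In whole tissue 0 of 68 passed and 9 (13.2%) had an unadjusted p under 0.05, against 8.44% of all genes, where at the adjusted threshold 0.0486% of all tested genes were higher and 0% lower. The smallest p there was that of ENSOARG00000002359, at −1.15 ± 0.34 (SE, limma adjusted p 0.341).

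The posterior left atrium offered tissue that the rule had not used, though 5 of its 12 sheep had given appendage samples. Of 65 members tested, 10 differed between transition and control sheep, 2 higher and 8 lower, where 8.84% of all tested genes were higher and 8.68% lower (limma, adjusted p of 0.05). The median change was −0.11, against −0.01 for all genes. Members were thus higher in 3.08% and lower in 12.3% of cases. By sample, the members' median was −0.26 to 0.11 in the 6 transition sheep and −0.10 to 0.13 in the 6 control sheep, and the groups overlapped.

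Among the 8 lower members, ENSOARG00000019381 had the largest change, −1.41 ± 0.28 (SE, limma adjusted p 0.00370). Its log2 CPM was 0.85, 1.17 and 2.54 (lowest, median and highest) in transition sheep and 2.29, 2.66 and 3.13 in control sheep, and only transition sheep G34, at 2.54, reached into the control range. In appendage cardiomyocytes it was 0.78 to 3.15 in paced and 2.33 to 3.17 in control samples, and in appendage tissue its paced change was −0.15. ENSOARG00000012184 followed at −1.29 ± 0.35 (limma adjusted p 0.0223), with 0.34, 0.95 and 2.06 in transition sheep and 1.33, 2.44 and 2.86 in control sheep. Without transition sheep D27 its change was −1.10 and without control sheep G32 −1.17, and in both it no longer passed.

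The 2 higher members were ENSOARG00000013157 and ENSOARG00000002923. ENSOARG00000013157, which was also higher in paced appendage tissue and lower in paced cardiomyocytes, changed by 1.51 ± 0.29 (SE, limma adjusted p 0.00299). It had a log2 CPM of 6.14, 7.14 and 7.42 (lowest, median and highest) in transition sheep, against 4.62, 5.39 and 6.28 in control sheep, with an overlap through transition sheep D27. ENSOARG00000002923 changed by 0.44 ± 0.14 (limma adjusted p 0.0390), with 6.15, 6.43 and 6.79 in transition and 5.80, 5.93 and 6.54 in control sheep. The control at 6.54 was S4, and the call was lost when any of 9 of the 12 sheep was left out. In paced appendage cardiomyocytes ENSOARG00000002923 lay at 7.48 to 8.65, below all control samples at 8.78 to 9.48.

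Within the G sheep alone, which gave no appendage samples and are thus independent of the choice of members, 5 of 65 members differed, 4 higher and 1 lower, where 3.57% of all tested genes were higher and 2.5% lower (limma). Those higher were ENSOARG00000017989 (2.22 ± 0.37, adjusted p 0.00725), ENSOARG00000013157 (2.10 ± 0.22, adjusted p 0.000934), ENSOARG00000019006 (0.78 ± 0.17, adjusted p 0.0236) and ENSOARG00000002923 (0.47 ± 0.12, adjusted p 0.0478), the last 2 named because the count is small. ENSOARG00000011702 was lower, at −1.03 ± 0.25 (adjusted p 0.0364), with 1.63 to 2.10 in 4 transition and 2.61 to 3.30 in 3 control sheep; its call was lost when any of 6 of these 7 sheep was left out. The count of 5 was 2 to 7 without each sheep, with 2 without G32 or G36. ENSOARG00000017989 had 6.35 to 6.97 in G transition sheep and 3.45 to 5.46 in G control sheep, but 5.58 and 5.75 in transition sheep D27 and D24 and 5.67 to 6.07 in control sheep C1, S3 and S4. A difference of the change between the sets of sheep was tested as an interaction, and 0 of 65 members passed, with a smallest adjusted p of 0.838 and 4 at an unadjusted p under 0.05, while 1 of all 12035 genes passed.

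The posterior left atrium was also read by gap class. Of the 45 that were 2-fold or more higher in isolated control cells, 2 were higher and 2 lower in transition sheep (4.44% each), against 12.8% higher and 9.82% lower of all 336 tested genes with such a gap. Of the 19 tested members within 2-fold, 0 were higher and 5 lower (26.3%), against 10.1% higher and 7.15% lower of all 9535 tested genes in that class. The median change was −0.03 for the 45 members and 0.02 for the 336 genes, and −0.17 for the 19 members and 0.02 for the 9535 genes. The difference between these classes was not tested.

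How far the members varied together within groups was also described. After group means were removed, the median correlation over the 2278 pairs of members was 0.22 across the 18 cardiomyocyte samples, with 69.8% of pairs above 0, and 0.06 across the 18 whole tissue samples. The main axis of this variation (first principal component) held 52.9% of the variance in cardiomyocytes and 50.7% in whole tissue. Both cardiomyocyte samples of chronic sheep D16 lay farthest along it, at −10.2. These samples share sheep and depth, no correlation over all genes is given beside these values, and they are a description. The median SD over the 6 control cardiomyocyte samples was 0.33 for members and 0.23 for all genes of level 1 or more. The lowest count of a member in any library ranged from 0 to 10771 reads in cardiomyocytes and from 0 to 1183 reads in whole tissue. ENSOARG00000015702 and ENSOARG00000009090 had 2 and 3 reads at their lowest in whole tissue.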

How the data were processed

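RNA of isolated cardiomyocytes and whole tissue of the appendages, and of whole tissue of the posterior left atrium, was sequenced after library preparation with an Illumina NEBNext Ultra kit, per the labels' protocols. Tools named in the submitters' processing notes are bcl2fastq, cutadapt, RSEM and limma, with no version or role; aligner, build and gene models were not given in the sources used here. Values that the authors deposited are log2 levels per gene and sheep. In the appendage tables each equals the log2 of whole reads plus 0.5 on a CPM scale: all 238716 cardiomyocyte and 237366 whole tissue values gave whole reads within 0.05. Genes that share reads with a copy cannot be told apart.

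The tests were planned on the deposited log2 values, and a model of the recovered appendage reads (voom) was run only as an alternative. The deposited values were tested with limma 3.58.1 (R 4.3.3), using a mean-variance trend, for genes with a mean log2 CPM of 0 or more (12279, 12333 and 12035 genes in cardiomyocytes, whole tissue and posterior left atrium), with Benjamini-Hochberg adjustment over all of them and a threshold of 0.05. Appendage models held 6 group means with the sheep as a random block. Sheep are named by the sheep ID in the labels; posterior left atrium columns carry sample titles instead, in which S1, S2 and S3 stand for the samples of sheep S3, S4 and C1. The pairing comes from these IDs, and the consensus correlation between samples of a sheep was 0.470 in cardiomyocytes and 0.294 in whole tissue. For the posterior left atrium, state and sheep set (G sheep or not) were the terms. The models were tested on simulated data.

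The members and lists were chosen with earlier results of these data known. Members were named where they had the lowest cardiomyocyte change, the highest level, the widest gap, a place next to a threshold, or the largest changes (up to 2 per direction, or the smallest p) in a comparison that did not choose them. Symbol lists of markers and pathways could not be used. Alternatives were low-value filters, 1 CPM added, other scalings, sample weights, no block, voom weights, other member thresholds, single sheep left out and, chosen after seeing the data, members with no library at 0 reads, other gap settings and the sheep of both tables alone.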

Additional observations from a re-analysis of the deposited data

Results flagged for a closer look

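In the posterior left atrium, transition sheep G34 had a log2 CPM of 2.54 for ENSOARG00000019381, far above the other 5 transition sheep, whose values were 0.85 to 1.29. Control sheep S4 had 6.54 for ENSOARG00000002923, apart from the other 5 control sheep at 5.80 to 6.01. These 2 samples stood apart among 14 groups checked, where chance marks about 1 group in 20.

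The left minus right difference of ENSOARG00000009090 had a median over sheep of 0.93 in isolated cardiomyocytes and −1.98 in whole tissue, with 9 of 9 sheep above 0 in cardiomyocytes and 9 of 9 below 0 in whole tissue. The difference between the preparations was not tested.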

How the results depend on the processing

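Directions and sides of the threshold mostly held. The median paced change of the members was −1.07 to −0.89 in cardiomyocytes and 0.02 to 0.23 in whole tissue over all alternatives tried. Left against right called 21 to 27 members in cardiomyocytes and 6 to 11 in whole tissue when each sheep was left out. With stricter member thresholds (21 members) the counts were 4 and 3, and with a wider one (182 members) 61 and 25. Library totals and sample quality weights each gave 15 in whole tissue. Without the sheep as a replicate block, 8 were called in cardiomyocytes and 6 in whole tissue, and 3 in whole tissue between chronic and transition sheep. For chronic against transition, sample quality weights gave 1 in cardiomyocytes and 6 in whole tissue, and the wider member threshold gave 1 in whole tissue. Leaving out each sheep gave 0 to 2 there in cardiomyocytes (2 without D23) and 0 to 2 in whole tissue (1 without C1, 1 without D15, 2 without D19). For the side difference of the paced change in cardiomyocytes, sample quality weights gave 2, and leaving out each sheep gave 0 to 1 (1 without D20). The posterior left atrium count of 10 was 6 to 11 without each sheep (6 without G32), 2 with the S, C and D sheep alone, 2 with stricter and 23 with wider member thresholds. Within the G sheep it was 2 to 7 without each sheep (3 without G21, G26 or G5, 2 without G32 or G36), 8 with sample quality weights and 1 with stricter thresholds. The count of members 2-fold or more higher in isolated cells of control sheep was 42 to 43 without each control sheep, 29 at 4-fold and 26 in paced sheep. Without each sheep, 23 to 31 members had every paced cardiomyocyte sample below every control sample. The causes of these shifts were not tested. Without libraries at 0 reads, the cardiomyocyte paced change of 4 of the 6 members that had them turned positive, to 0.22 in ENSOARG00000006834 and ENSOARG00000012450, 0.08 in ENSOARG00000000570 and 0.24 in ENSOARG00000006691. The 19 results of named members in comparisons that did not choose them kept their direction in 316 of 316 alternatives. The posterior left atrium calls of ENSOARG00000013157, ENSOARG00000002923, ENSOARG00000019381 and ENSOARG00000012184 were lost with the S, C and D sheep alone, with changes of 0.67, 0.41, −1.45 and −1.35. That of ENSOARG00000011702 among G sheep was lost without any of 6 of the 7 sheep, with changes of −1.18 to −0.83. The depth of the posterior left atrium is unknown, and low members rest on few reads.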
